A study of Oryza sativa with 10 samples.

Results

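Gene expression after 12 days of salt was compared with expression without salt in S3, the rice (Oryza sativa) line that its labels call salt susceptible. The comparison used 5 of the 10 libraries of the series, chosen by their titles: 2 controls at 0 mM NaCl and 3 libraries at 140 mM NaCl. The plants had grown without salt for 30 days, those of the salt group then spent 12 days in culture solution with NaCl, and all were 42 days old when root RNA was taken. The other 5 libraries, from the line labelled salt tolerant (S13), had the same treatment and helped to estimate the spread. Separate plants or cultures are not stated for the replicates, and the p-values below refer to the spread from library to library, part of which may be technical.

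A root in saline solution meets sodium ions and a lowered water potential together. As textbook background, plant cells keep sodium out of the cytoplasm with carriers that move it out of the cell, back from the xylem or into the vacuole, and proton pumps power these carriers. The hormone abscisic acid relays the loss of water: it blocks protein phosphatases of type 2C, which frees SnRK2 kinases to act on transcription factors, and dehydrins and other late embryogenesis abundant (LEA) proteins then accumulate and protect cell contents. Small heat shock proteins hold damaged proteins in solution, and enzymes such as catalase and ascorbate peroxidase remove peroxide.

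The S3 libraries held 22938524 to 24118510 counts and detected 30092 to 31829 of 38978 genes. Levels are given as CPM, counts relative to the size of the library, scaled by TMM, a method that sets libraries equal over the bulk of their genes, and a gene was called changed at a Benjamini-Hochberg adjusted p under 0.05 in edgeR's quasi-likelihood test over 28189 genes. The 10 most abundant genes took 6.0% and 7.70% of the counts in the controls and 11.7% to 14.7% under salt. The TMM factors were 1.42 and 1.31 in the controls and 0.753 to 0.883 under salt, so the scaling itself moves with treatment. With library totals in their place, the median gene shifted from a log2 fold change of -0.06 to -0.77. A principal component analysis of the S3 libraries alone put 71.3% of the variance on its first axis, where the controls had scores of -150 and -135 and the salt libraries 81.7, 113 and 89.5.

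The tissue was looked at through marker lists, with a limit that applies to every list below. The count files and the gene table used here do not pair the nuclear RAP identifiers (the Os numbers of the Rice Annotation Project) with gene names, so list members were put under their headings from general knowledge of rice genes and that pairing was not checked against an annotation. Of 5 root markers, 3 did not pass the filter on low counts and reached at most 0.222 CPM in any S3 library, 1 of them with no count in all 5. The other 2 were not called, and the root list summed to 8.46 and 8.93 CPM in the controls and to between 5.87 and 10.6 CPM under salt. All 9 markers of green tissue passed the filter. Dehydrin and LEA genes, whose proteins are best known from drying seeds and water-stressed tissue, were listed together with a salt-induced lectin. That list summed to 27586 and 42181 CPM in the unsalted controls too. That the RNA came from roots therefore rests on the labels, and these lists do not settle it.

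Between salt and control 9237 genes, 32.8% of those tested, were called: 4059 rose (14.4%) and 5178 fell (18.4%). Of these, 3564 rose and 4795 fell by at least 2-fold, and 1549 and 2422 by at least 4-fold. The salt and control libraries did not overlap in 4041 of the genes that rose and 5154 of those that fell, against 61.7% of all tested genes. The split between directions depended on the scaling. With library totals 5.8% of genes rose and 36.9% fell, and all 5178 genes that fell, but 1636 of the 4059 that rose, kept their call. With TMM scaling, 686 rose and 48 fell of 1328 genes with a mean of at least 125 CPM over the 5 S3 libraries. That mean includes the salt libraries, so a rise helps to put a gene in this group and a fall to keep it out.

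Because S3 had only 2 control libraries, the whole fit was repeated with each left out in turn; the remaining control was then assumed to vary as libraries of the other groups do. Without control 1 the test called 1149 genes higher and 2075 lower. Without control 2 it called 1910 higher and 3367 lower. A call was counted as held when it was made in the full fit and in both of these refits. By that rule 867 genes rose (3.08% of those tested) and 1726 fell (6.12%), which is 21.4% of the genes that had risen and 33.3% of those that had fallen.

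Most calls that were lost were lost by their p-value and not by their direction. All 4059 genes that rose kept a positive fold change without control 1 and without control 2. Of the 5178 that fell, 5170 stayed negative without control 1 and all did without control 2. The refits share the salt libraries, so these counts are not independent of each other. They also follow largely from the calls: salt and control libraries did not overlap in 4041 of the rises and 5154 of the falls. In such genes leaving out 1 control can hardly turn the direction. The median log2 fold change of the genes that rose was 1.71 with both controls, 1.65 without control 1 and 1.80 without control 2. For genes that fell it was -1.92, -1.79 and -1.97. More calls were lost without control 1 than without control 2. There were 908 higher and 1460 lower calls that needed control 1 but not control 2, and 229 higher and 324 lower calls that needed control 2 but not control 1. A further 2055 higher calls (50.6%) and 1668 lower calls (32.2%) were made in neither refit. The salt libraries mattered too: without salt library 2 the test called 2606 genes higher and 3359 lower.

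**Figure D1:**
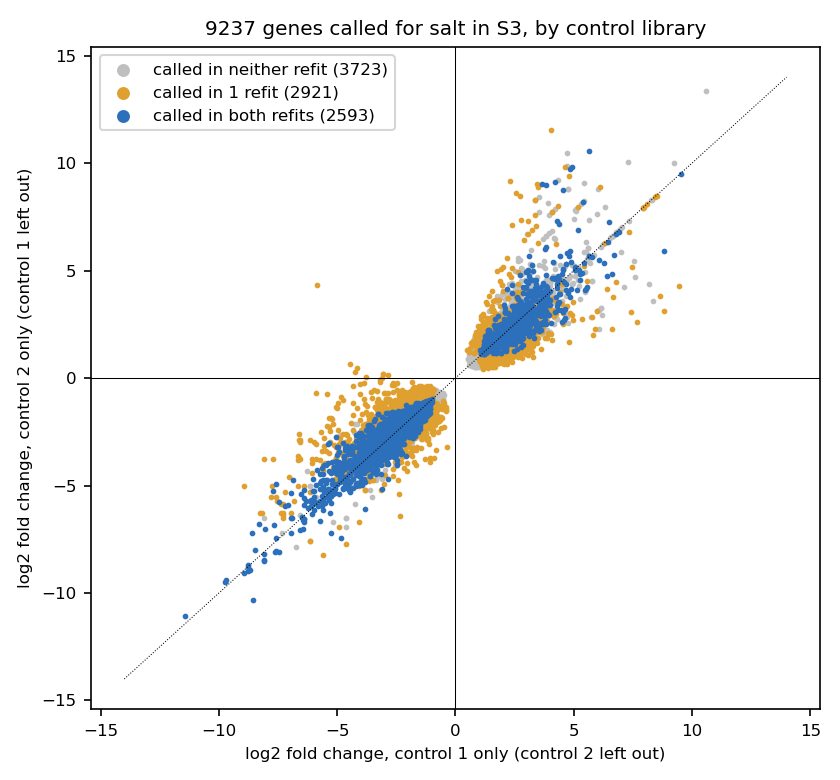
Log2 fold change, salt against control, of each gene called in S3, with control 1 as the only control (x axis) and with control 2 as the only control (y axis); each point is a gene and the dotted line marks equal values. Colours mark 2593 genes called in both refits, 2921 in 1 refit and 3723 in neither; the points lie along the line, and those far from it are genes whose controls differ.

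The genes that held had larger changes than those called in neither refit. The rule favours this, here and in the bins of fold change below: a held gene passed the same threshold in 2 fits with 1 control fewer. The median log2 fold change was 2.3 for held rises and 1.47 for rises made in neither refit, and -2.56 and -1.42 for falls. Held rises had a median level of 46.5 CPM, against 21.5 CPM for rises made in neither refit, while for falls these levels were 4.93 and 4.29 CPM. The 2 controls lay no closer together in held genes: their median distance was 0.27 on a log2 scale with 0.5 CPM added for held rises and 0.22 for rises made in neither refit. For falls the same distances were 0.26 and 0.22. Among all 28189 genes the controls differed by more than 2-fold in 2316, and control 1 was the higher in 1359 of them.

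A larger change did not make a rise safe. Of rises with a log2 fold change under 1, 0 of 495 held. The share was 15.7% between 1 and 2, 34.5% between 2 and 3 and 41.0% between 3 and 4, but 31.1% at 4 and over. Falls held at 18.2%, 48.8%, 59.5% and 59.4% over the same 4 bins. Among changes of at least 8-fold, 220 of 590 rises and 619 of 1041 falls held.

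**Figure D2:**
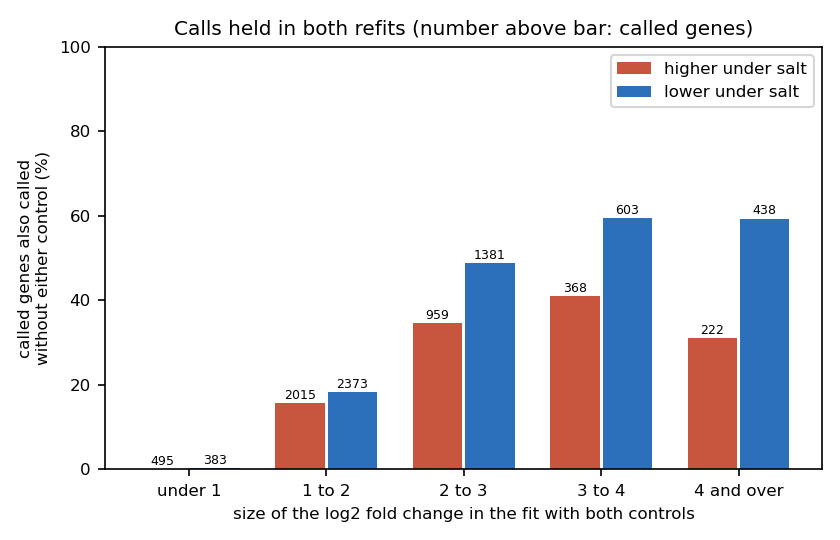
Share of called genes that were called again in both fits without 1 control (y axis, %), by the size of the log2 fold change with both controls (x axis); red bars are rises, blue bars falls, and the number above a bar is the count of called genes in it. Falls held more often than rises in every bin, and the share for rises dropped from 41.0% to 31.1% in the last bin.

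Rice genes with known parts in salt, water, nutrient and stress responses were followed as 246 RAP identifiers in 24 lists, of which 217 passed the filter on low counts and 29 did not. Of the 217, 64 rose (29.5%, against 14.4% of all tested genes) and 19 fell (8.76%, against 18.4%), and 134 were not called. Most of these calls were lost in at least 1 refit: 15 rises and 6 falls held, 9.68% of the tested members against 9.2% of all tested genes, and 36 calls were made in neither refit. The median log2 fold change of the members was 0.62, against -0.06 for all genes. With library totals it was -0.07 against -0.77, and 34 members rose and 43 fell. The median stood above that of all genes under both scalings, while its sign did not hold. The members were not matched to other genes by level, and the shares called vary with it. Of 5439 tested genes with a mean of 25 to 125 CPM over the S3 libraries, 1457 rose and 449 fell. The lists were also chosen with earlier results of these data known.

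**Figure D3:**
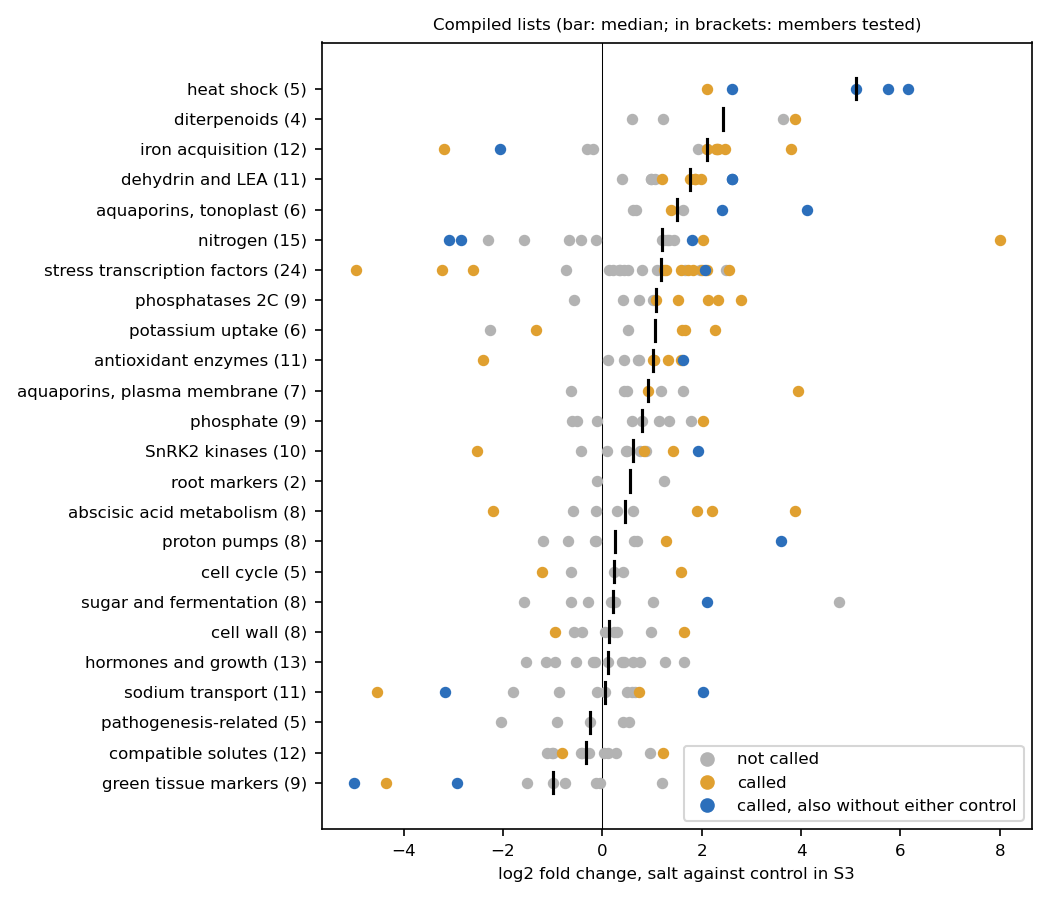
Log2 fold change, salt against control in S3 (x axis), of every tested member of each list (rows, with the number of tested members); grey points were not called, orange points were called and blue points were also called without either control, and the black bar is the list's median. Heat shock stands to the right with a median of 5.11 and green tissue markers to the left with -0.98; the point at 8.0 in the nitrogen list is a fitted value for a member with no count in either control and is no measure of size.

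Heat shock proteins and their regulator had the highest median of the lists. All 5 members rose and 4 held, with log2 fold changes from 2.11 to 6.14 and a median of 5.11. The list summed to 95.9 and 134 CPM in the controls and to between 757 and 1522 CPM under salt. The groups did not overlap, and 4 of the 5 rises were also called with library totals. Of all tested genes 14.4% rose, and the groups did not overlap in 61.7%.

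Dehydrins and LEA proteins, listed together with the salt-induced lectin, were the most abundant list. From the control sums given above it reached between 109462 and 157818 CPM under salt, and every salt library lay above both controls. Of 11 members 7 rose, none fell and 2 held, the lectin among these 2, and the median log2 fold change was 1.77. In the refits 2 members were called higher without control 1 and 6 without control 2. With library totals 6 members rose and the median was 1.06. The 7 rises under TMM were 63.6% of the members, against 14.4% of all tested genes.

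Genes of the abscisic acid relay rose in part, and hardly any of these calls held. Over all tested genes 14.4% rose and 18.4% fell, and most of those calls did not hold either. Among 9 phosphatases of type 2C 5 rose and none held; the list summed to 576 and 833 CPM in the controls and 2009 to 3197 CPM under salt. Of 10 SnRK2 kinases 3 rose, 1 fell and 1 held, with a median of 0.63 that became -0.09 with library totals. Of 8 genes for making and breaking down abscisic acid 3 rose, 1 fell and none held, and their median went from 0.46 to -0.26 with library totals. Stress transcription factors, 24 members of several families, counted 9 rises and 3 falls, of which 1 held; with library totals 2 rose and 4 fell.

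Genes of ion and water transport were called in both directions. Of 11 tested sodium carriers and their regulators 2 rose and 2 fell (18.2% each, near the 14.4% and 18.4% of all tested genes), 1 of each held, and the median was 0.06, or -0.64 with library totals. Potassium uptake counted 3 rises and 1 fall among 6, none of which held. Of 8 proton pumps 2 rose and 1 held, with a median of 0.26 that became -0.44 with library totals. Among the aquaporins, which are water channels, 3 of 6 tonoplast channels rose and 2 held, and their sum went from 521 and 621 CPM to between 2303 and 5150 CPM. Of 7 plasma membrane channels 2 rose and none held, and their sum went from 588 and 911 CPM to between 1067 and 1574 CPM. In both lists every salt sum lay above both controls.

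Nutrient genes were also called in both directions. Of 15 tested members of the nitrogen list 3 rose and 2 fell, shares near the 14.4% and 18.4% of all tested genes. Of these 5 calls 3 held. The list's median of 1.21 was unaltered with the member at 0 in the controls set to its bound. Iron acquisition and storage counted 6 rises and 2 falls among 12, of which 1 fall held, and 5 calls were made in neither refit. Its list summed to 363 and 768 CPM in the controls and to between 1606 and 1940 CPM under salt. Of 9 phosphate genes 1 rose, also near the 14.4% of all tested genes, and it did not hold.

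In a list of 11 antioxidant enzymes and NADPH oxidases 5 rose (45.5%, against 14.4% of all tested genes), 1 fell and 1 held. With library totals 2 rose and 1 fell. Other groups counted few calls. Of 12 genes for compatible solutes such as proline and trehalose, 1 rose and 1 fell and neither held; with library totals 6 fell. None of 13 hormone and growth genes and none of 5 pathogenesis-related genes was called; in the latter the 2 controls summed to 13.2 and 96.4 CPM, almost the range of the salt libraries, 24.1 to 98.4 CPM. Cell wall synthesis counted 1 rise and 1 fall among 8, diterpenoid synthesis 1 rise among 4, and sugar and fermentation 1 rise among 8, which held. Genes of dividing cells, 5 tested, counted 1 rise and 1 fall, and summed to 12.9 and 14.5 CPM in the controls and to between 9.33 and 13.3 CPM under salt. A missed threshold with 2 controls does not show that a gene was unaffected.

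The identifiers themselves are given next with no name or role. From each list the called member with the largest fold change and at least 5 CPM in its higher group was taken, which gave 18 genes. Of these, 9 held. Over all called genes 21.4% of rises and 33.3% of falls held. The 18 were picked for large changes, which held more often than small ones. Coordinates are those of the deposited files, build IRGSP-1.0.

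Among the rises that held, Os01g0136100 (chr1:1948773-1949587) was the largest. The controls had 3.39 and 6.57 CPM, and the salt libraries 448, 450 and 157 CPM. Its log2 fold change was 6.14 (SE 0.98, edgeR adjusted p = 0.00201), and every salt library stood far above both controls. Os10g0492600 (chr10:18701151-18702537) went from 112 and 157 CPM to 1503, 3758 and 1795 CPM, a log2 fold change of 4.13 (SE 0.70, edgeR adjusted p = 0.00252). Salt library 2 was the highest by a wide margin, and the gene shares exon bases with another, so its counts cannot be told apart from that gene's. Os02g0802500 (chr2:34210424-34214885), which also overlaps another gene, had 10.8 and 7.70 CPM in the controls and 109, 143 and 85.2 CPM under salt. This made a log2 fold change of 3.6 (SE 0.47, edgeR adjusted p = 0.00105).

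Os11g0453900 (chr11:15320288-15321526) was among the most abundant genes of these libraries. It had 1697 and 2670 CPM in the controls and 13113, 15713 and 11114 CPM under salt, a log2 fold change of 2.61 (SE 0.47, edgeR adjusted p = 0.00334). The groups were well apart, but the call came close to the threshold without control 1, where the edgeR adjusted p was 0.0417. Os06g0194900 (chr6:4796628-4802509, overlapping another gene) went from 66.2 and 44.0 CPM to 237, 273 and 202 CPM. Os03g0390200 (chr3:15628109-15632425) went from 80.9 and 124 CPM to 469, 391 and 310 CPM. For both, the lowest salt library lay more than 2-fold above the higher control, and the log2 fold changes were 2.11 (SE 0.38) and 1.93 (SE 0.32).

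Falls that held were as clear in every library. Os01g0600900 (chr1:23607363-23608541) had 124.7 and 43.2 CPM in the controls and 3.38, 3.94 and 0.580 CPM under salt. The controls differed from each other, yet both lay above every salt library, and the log2 fold change was -5.00 (SE 0.75, edgeR adjusted p = 0.00163). Os04g0607500 (chr4:30724493-30727084, overlapping another gene) fell from 12.9 and 16.3 CPM to 2.07, 1.28 and 1.5 CPM. Os10g0554200 (chr10:21757771-21762202) fell from 13.2 and 18.7 CPM to 1.5, 2.28 and 1.84 CPM. Their log2 fold changes were -3.17 (SE 0.44) and -3.09 (SE 0.51), with edgeR adjusted p = 0.00124 and 0.00234, and in both the replicates of a group lay close together.

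In 2 of these 18 genes the fold change was far smaller with 1 of the controls alone. Os05g0322900 (chr5:14991579-14993673) had 67.9 CPM in control 1 but 1.83 CPM in control 2, next to 0.563, 1.72 and 1.11 CPM under salt. Its log2 fold change was -4.95 with both controls, -5.91 with control 1 alone and -0.70 with control 2 alone, where the edgeR adjusted p was 0.735. Os03g0131200 (chr3:1787679-1790806) was the mirror case, with 26.4 CPM in control 1, 193 CPM in control 2 and 34.8, 19.1 and 8.36 CPM under salt. Control 1 lay inside the range of the salt libraries, and the log2 fold change was -2.40 with both controls, -3.21 with control 2 alone and -0.35 with control 1 alone (edgeR adjusted p = 0.716).

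Other calls were lost although both controls agreed on the direction and lay apart from salt. Os02g0629200 (chr2:25162876-25166544, overlapping another gene) had 6.66 and 4.37 CPM in the controls and 65.8, 151 and 38.5 CPM under salt. Its log2 fold change was 3.95 (SE 1.1, edgeR adjusted p = 0.0203) with both controls and 3.68 to 4.28 with either, where the adjusted p was 0.119 and 0.106. Os07g0154100 (chr7:2870686-2872829, overlapping another gene) went from 24.9 and 18.8 CPM to 175, 564 and 231 CPM and was lost at edgeR adjusted p of 0.0575 and 0.0594. In both genes the salt libraries spread widely and salt library 2 was the highest. Os02g0650300 (chr2:26200136-26204468) was the opposite, with salt libraries at 9.39, 9.39 and 8.41 CPM but controls at 0.366 and 0.933 CPM, which are 12 and 28 counts.

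For the remaining 4 of the 18 the calls were also lost in 1 or both refits. Os03g0268600 (chr3:8921424-8923437, overlapping another gene) had 77.1 and 90.4 CPM in the controls and 452, 861 and 426 CPM under salt, with a log2 fold change of 2.79 (SE 0.98, edgeR adjusted p = 0.0493). It was lost in both refits and with library totals, where the edgeR adjusted p was 0.0732. Os07g0669700 and Os03g0192700, both overlapping other genes, were called without control 2 but not without control 1; the first went from 10.7 and 18.5 CPM to 47.1, 54.4 and 37.7 CPM (edgeR adjusted p = 0.00535 with both controls) and the second from 196 and 250 CPM to 432, 636 and 505 CPM (edgeR adjusted p = 0.0111). Os03g0192700 was also lost with library totals, at an edgeR adjusted p of 0.148. Os05g0176100 (chr5:4565244-4571358) was the smallest change, from 78.9 and 56.1 CPM to 39.2, 26.9 and 38.9 CPM, a log2 fold change of -0.95 (SE 0.31, edgeR adjusted p = 0.0393), and was called in neither refit.

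**Figure D4:**
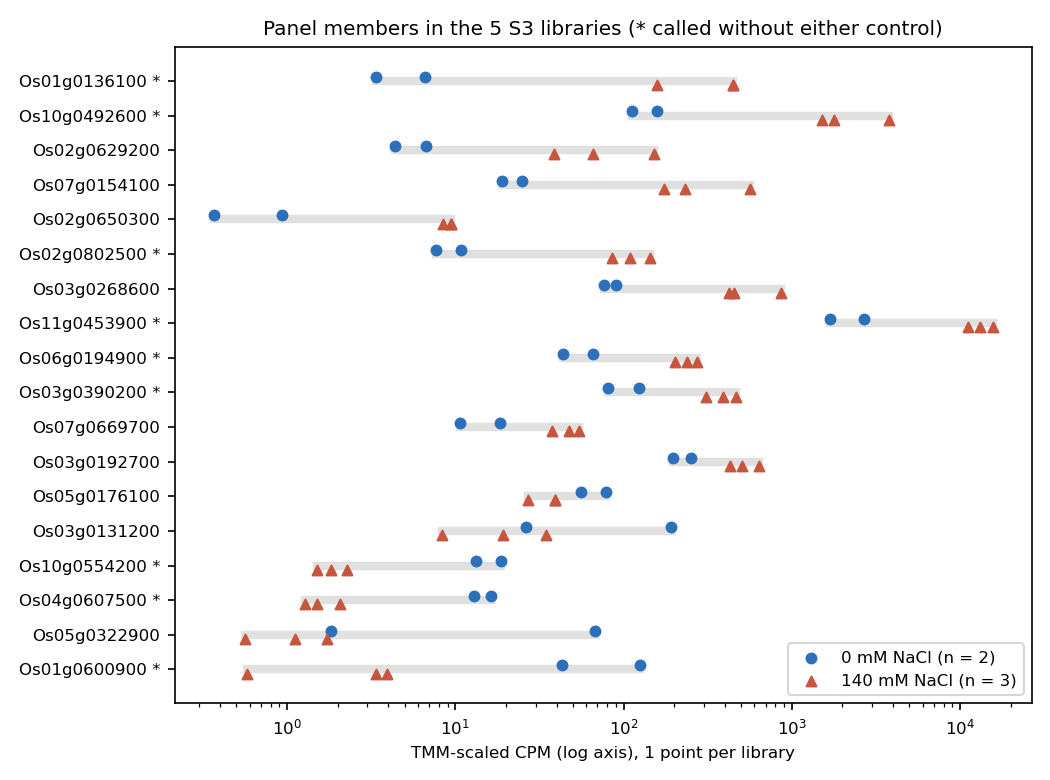
TMM-scaled CPM (x axis, log scale) of 18 list members (rows, by RAP identifier, ordered by fold change) in each S3 library; blue circles are the 2 controls, red triangles the 3 salt libraries, and an asterisk marks genes called in both refits without 1 control. Controls and salt libraries are apart in 17 rows, as they are in 99.6% of all called rises and 99.5% of all called falls. In Os03g0131200 control 1 lies among the salt libraries, and in Os05g0322900 control 2 lies beside them.

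Outside the lists, the largest held changes were in genes near absence in 1 group. Os03g0591700 (chr3:21954147-21957702) had 468 and 336 counts in the controls and none in the 3 salt libraries, at least 256-fold lower against a floor of 3 counts over the salt group. Os10g0557600 (chr10:21944314-21945183, overlapping another gene) had 608 and 612 counts in the controls and 1, 0 and 1 under salt, a ratio of 583 (95% counting interval 161 to 4819). Os08g0158400 (chr8:3415483-3417216) had 4 counts in each control and 498, 261 and 180 under salt, a log2 fold change of 6.87 (SE 1.11). Os01g0382200 (chr1:15948833-15953007) had 2 and 1 counts in the controls and 103, 134 and 112 under salt, 122-fold higher (95% counting interval 41.3 to 593). These intervals and the floor cover counting error only.

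Some large changes were lost. Os02g0186100 (chr2:4791404-4793451) had 1 and 0 counts in the controls and 1733, 1141 and 390 under salt, and Os01g0917100 (chr1:39985223-39986495) had 2 and 1 against 222, 1295 and 785. Both rises were called with both controls and in neither refit, where the edgeR adjusted p ranged from 0.0686 to 0.107. In both genes the salt libraries spread widely. Among falls, Os10g0195250 (chr10:6597058-6599557) went from 28.4 and 55.3 CPM to 3.57, 1.39 and 1.06 CPM, and Os07g0599600 (chr7:24472509-24473579) from 10.1 and 6.47 CPM to 1.36, 0.444 and 0.677 CPM. Their groups did not overlap, and neither call held.

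The genes that the files themselves name are those of the plastid and the mitochondrion, and most plastid genes rose. Plastids of every tissue carry a small genome for parts of photosynthesis and for its own expression. Of 59 named plastid genes 58 were tested, and 35 rose (14.4% of all tested genes did) and 2 fell; 14 rises and 1 fall held, and 22 rises and 4 falls were called with library totals. Plastid genes held 0.166% and 0.189% of all counts in the controls and 0.291%, 0.302% and 0.457% under salt, highest in salt library 3. In bulk RNA more plastid RNA per cell and more cells rich in plastids cannot be told apart. Of 9 nuclear markers of green tissue none rose, 3 fell (33.3%, against 18.4% of all tested genes) and 6 were not called. Their median log2 fold change was -0.98, with 1 member above 0, at 1.20. The markers summed to 799 and 1292 CPM in the controls and 349 to 982 CPM under salt, which overlap. Their part in the plastid result was not tested.

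Plastid genes for transcription included the largest rise among named plastid genes with more than 6 exon bases. This was rpoB, which encodes the beta subunit of the plastid's own RNA polymerase; it had 0.794 and 0.567 CPM in the controls and 15.2, 9.78 and 31.2 CPM under salt. Its log2 fold change was 4.77 (SE 0.59, edgeR adjusted p = 0.000949), and the groups were far apart. Of the other subunits, rpoC1 rose by 2.62 on the log2 scale and held, rpoC2 rose by 2.1 and was called in neither refit, and rpoA was not called at 0.88.

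ATP synthase, which makes ATP from the proton gradient across the thylakoid, split. Its membrane subunit gene atpH went from 4.28 and 1.1 CPM to 29.4, 27.3 and 51.1 CPM, a log2 fold change of 3.74 (SE 0.67, edgeR adjusted p = 0.00312). With atpI and atpF, 3 of the 4 genes rose and held, where 14.4% of all tested genes rose and 3.08% rose and held. The fourth, atpA, which encodes the alpha subunit, fell from 63.0 and 44.0 CPM to 17.6, 14.1 and 21.2 CPM, and was called without control 2 but not without control 1.

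The photosystems showed the same division between most genes and a single abundant one. Of 12 photosystem II genes 9 rose and 4 of these held, and with library totals 8 rose and 2 fell. Over all tested genes 14.4% rose and 3.08% rose and held. Among the 4 was psbK, which codes for a small subunit and went from 1.13 and 0.433 CPM to 7.94, 7.72 and 12.4 CPM (log2 fold change 3.57, SE 0.58). The exception was psbA, which encodes the D1 reaction centre protein. It had 74.3 and 67.9 CPM in the controls and 18.8, 13.4 and 18.8 CPM under salt, a log2 fold change of -2.06 (SE 0.38, edgeR adjusted p = 0.00344), and was the only named plastid gene whose fall held. In photosystem I, psaA and psaB rose, psaA held, and psaC was not called at -1.15.

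Of 3 tested genes for cytochrome b6f and electron transfer, petB and petE rose and held. The gene that the files label petE went from 1.95 and 1.40 CPM to 20.1, 14 and 33.7 CPM (log2 fold change 3.75, SE 0.50). For petB the files count only 6 exon bases, and its counts were 5 and 5 in the controls and 149, 35 and 343 under salt. All 7 genes of the NDH complex, which carries electrons back into the chain, had positive log2 fold changes between 1.38 and 2.93. Of these 6 rose and none held, and with library totals 2 rose. Of all tested genes 14.4% rose with TMM, 5.8% rose with library totals, and 3.08% rose and held. Of 22 ribosomal protein genes 9 rose with TMM and 3 with library totals, and none fell. The rises of 2 held. Among those was rps12, with 1.31 and 0.333 CPM in the controls and 6.86, 7.61 and 16.8 CPM under salt (log2 fold change 3.65, SE 0.67).

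Mitochondrial genes were measured at low levels. Of 53 named genes 31 were tested, 6 rose and none fell, and 3 of the rises were called with library totals. Over all tested genes 14.4% rose and 18.4% fell. Only cob, which encodes cytochrome b, held. It went from 2.26 and 1.90 CPM to 5.35, 9.78 and 6.81 CPM, a log2 fold change of 1.81 (SE 0.37, edgeR adjusted p = 0.00534).

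**Figure D5:**
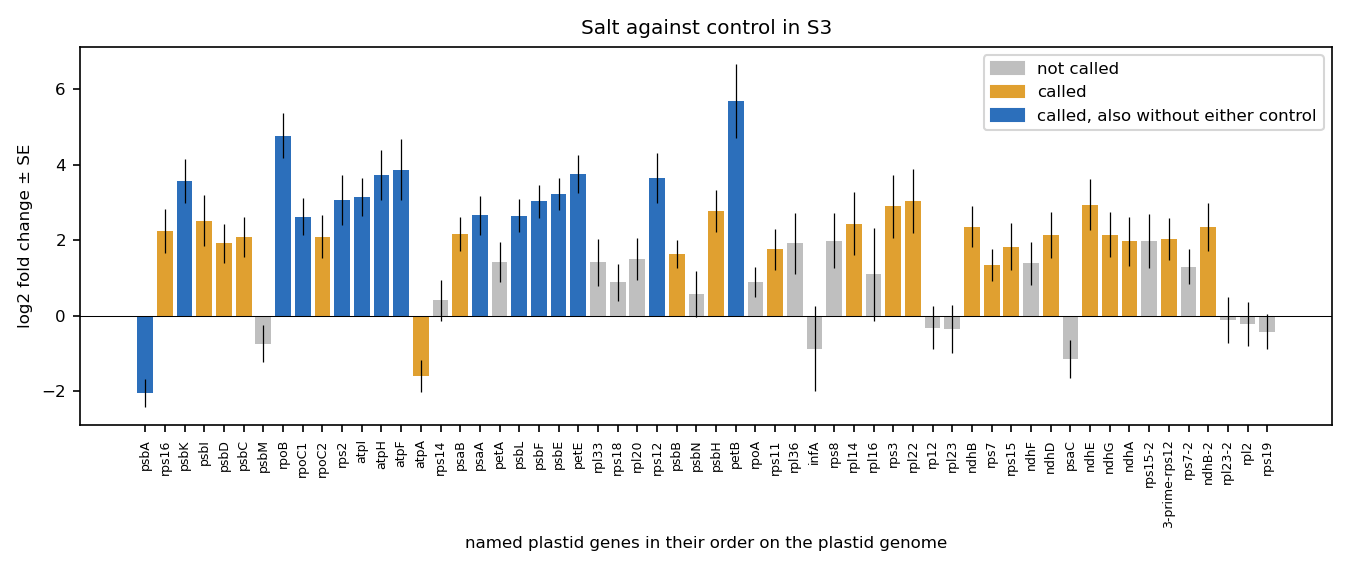
Log2 fold change with its standard error (y axis), salt against control in S3, of the 58 tested named plastid genes in their order on the plastid genome (x axis). Grey bars were not called, orange bars were called and blue bars were also called without either control. Most bars point up, and psbA and atpA are the called bars that point down.

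Whether S3 responded otherwise than the tolerant line was tested as the difference of the responses in the same fit. It called 0 of 28189 genes in edgeR and 0 in limma-voom, with 2435 genes (8.64%) at an unadjusted p under 0.05 in edgeR. No list member was called. The log2 fold changes in S3 and S13 were 6.14 and 6.90 for Os01g0136100, 2.61 and 2.15 for Os11g0453900, -5.00 and -4.65 for Os01g0600900 and 4.77 and 5.19 for rpoB. They were further apart for Os02g0650300, at 3.8 and 1.68, where the difference was 2.12 (SE 1.23, edgeR adjusted p = 0.646). A difference that misses the threshold does not show that the lines responded alike.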

How the data were processed

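For each library the authors deposited raw counts for 38978 genes beside the position, strand and exon length of each gene, per the file headers. The submitters' processing notes name build IRGSP-1.0 and the tools HISAT2, featureCounts, Trimmomatic, FastQC and DESeq2, without versions. No column of another sample was present (0 columns). Exons of 11453 genes (29.4%) overlap those of another gene, and such genes are marked as overlapping where they are given.

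The test was edgeR 4.0.16 under R 4.3.3. Of the genes 28189 passed filterByExpr by group and 10789 did not. Libraries were scaled by TMM, and quasi-likelihood fits with a mean for each of the 4 groups used all 10 libraries. Genes were called at a Benjamini-Hochberg adjusted p under 0.05; SE is the fold change divided by the square root of the F statistic. Refits without a library repeated the filter. Biological variation (edgeR's coefficient) came to 37.3% with all groups, 32.5% in the S3 controls and 35.3% under salt. The chi-square per degree of freedom between replicates was 55.3 to 88.0, far above sampling noise, and each was counted as a sample. A floor of 3 counts was 0.124 to 0.131 CPM by library totals. The fit was tested on simulated data with 200 changed genes. Alternatives used limma 3.58.1, DESeq2 1.42.0, other scalings and filters, a replicate block and single libraries left out.

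The genes, lists and tests were chosen with earlier results of these data known. Of 37849 nuclear identifiers, the gene table (assembly ASM3414082v1) paired 1, with no name; 112 organelle genes are named by the files, and their groups were formed from their symbols. The rule for named genes took from each list up to 3 called members with the largest fold change, at a minimum of 5 CPM in the higher group, and 1 that was not called, 70 genes of which 47 were called; only the leading called member of each list is given with values, which are 18. It also took the largest changes among genes that held, up to 6 named genes and 2 identifiers each way, and 2 identifiers each way among calls made in neither refit. Lists with no such member give none. The further organelle examples were picked with their values in view.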

Additional observations from a re-analysis of the deposited data

How the results depend on the processing

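The counts of S3 genes that rose and fell were 4059 and 5178. They moved by more than 1.5 times with library totals in place of TMM, to 1636 and 10407, and when single libraries were left out: the range over the 5 libraries was 1149 to 3477 rises and 2075 to 4374 falls. The libraries behind it were control 1 (1149 and 2075), control 2 (1910 and 3367) and salt 2 (2606 and 3359). The other settings stayed within 1.5 times: DESeq2 (5344 and 5555), limma-voom (4200 and 5559), DESeq2 size factors in edgeR (4275 and 4917), S3 libraries alone (4595 and 5180), no filter (3869 and 4943), at least 5 CPM in 2 libraries (3286 and 4129) and 1 gene per set of overlapping genes (3580 and 4586). With the replicate number as a block the counts were 3718 and 4654. Same-numbered S3 libraries deviated with correlations of -0.12 and -0.03. The deviations of the 2 controls mirror each other, so these values cannot show whether the numbers pair the libraries. Of the 83 list members called, 25 were called again without control 1, 43 without control 2, 52 without salt 2, 53 with library totals and 82 with DESeq2. Without control 1, 1 of the 83 changed sign. None of the 33 genes given with values by the rule changed direction under any setting. Those outside the lists were chosen by being called in both refits without 1 control or in neither. They also had to show no overlap of the compared libraries. For them the outcome in those refits was fixed by the choice, and the direction nearly so. The difference of the responses stayed at 0 calls with library totals, without either control and with the block. The cause of these shifts was not tested. Low counts limit what can be said of genes near absence.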

Other observations

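Calls in adjacent loci were counted over 24246 loci after genes with shared exon bases had been joined. Of 3363 loci that rose, 42.3% had an adjacent locus that also rose, and of 4639 that fell, 46.2% had an adjacent one that also fell. With so many loci called, adjacent calls occur at these base rates too, and the shares were not compared with them. The runs given here were chosen after their values were seen. The longest was 9 falling loci on chromosome 6 (chr6:1090058-1209114, from Os06g0120200 to Os06g0122800), whose summed mean level was 38.2 CPM in the controls and 4.89 CPM under salt, and of which 1 held. On chromosome 1 (chr1:1944276-1967451), 6 rising loci that include Os01g0136100 went from 51.7 to 744 CPM, and 4 of them held. On chromosome 11 (chr11:19523782-19596109), 8 rising loci went from 98.6 to 343 CPM with 4 held, and on chromosome 3 (chr3:1870804-1892480) 6 went from 589 to 3380 CPM with 1 held. A run of 8 falling loci on chromosome 7 (chr7:20256757-20315784) went from 1087 to 398 CPM, and none held. Neighbouring calls are not independent of each other, and no test of the runs was made.

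Of 949 identifiers that begin with ENSRNA, 239 were tested. Of these, 48 rose (20.1%, against 14.4% of all tested genes) and 39 fell (16.3%, against 18.4%). Among the loci left after genes with shared exon bases had been joined, the share that rose ranged from 11.2% on chromosome 11 to 15.3% on chromosome 3.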
